A study of Drosophila melanogaster with 9 samples.

Results

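The comparison described here sets heads of male *Drosophila* that carry *BxJ*, a gain-of-function allele of *dLmo*, against heads of the control line *w;iso*. Its members are the 3 arrays titled as *BxJ* mutants and the 3 titled as *w;iso* controls, that is, 6 of the 9 arrays of the series, and the 18769 probe sets, of 18952 on the array, that are not manufacturer's controls. A probe set is a group of short oligonucleotides on an Affymetrix Drosophila 2.0 chip that together give 1 intensity for a transcript. The other 3 arrays, of the loss-of-function line *EP1306*, only helped to estimate the spread between replicates. The study made these arrays to look for transcripts that depend on dLMO, a regulator linked to the response of flies to ethanol. *BxJ* flies carried the X-linked *BxJ* allele in a line that had been crossed for several generations to the control stock. The control was a *w1118* stock, a *white* mutant, isogenic for chromosomes II and III, and it was not described as isogenic for the X chromosome, on which *dLmo* lies. Flies of both genotypes were untreated adult males, 2 to 3 days old by the labels, and 1 allele in 1 line stands for the gain of function.

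The dLMO protein consists mainly of a pair of LIM domains and does not bind DNA itself. It binds Chip, a cofactor that LIM-homeodomain transcription factors such as Apterous need, and so limits the activity of those factors. Gain-of-function alleles, called *Beadex*, are known for the loss of wing margin tissue. In the adult head *dLmo* is expressed in neurons that include the clock cells, and it is known for its part in behavioral responses to cocaine and ethanol.

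The labels say that 600 flies of a genotype were combined for RNA isolation and that the RNA was then split in 3, while the methods describe 3 groups of 200 heads. P-values therefore measure the spread between these arrays, which may be technical. Across probe sets, the correlation was 0.995 to 0.998 between *BxJ* arrays, 0.994 to 0.996 between control arrays, and 0.989 to 0.995 between the genotypes. Photoreceptor markers were bright on every array, as in head tissue. The summed intensity of 4 measured genes was 47226 to 51972 in *BxJ* and 51535 to 57840 in the control. The 3 ovary markers summed to 20 to 26 in *BxJ* and 21 to 25 in the control. An ovary is not part of the head, so these do not tell the sex of the flies. The yolk protein genes *Yp1* and *Yp2* varied widely within each genotype. *Yp1* read 5.6, 374 and 100 in *BxJ*, against 518, 8.1 and 8.03 in the control. *Yp2* read 8.58, 86.3 and 18 in *BxJ*, against 252, 8.49 and 7.7 in the control. The source of this spread, whether in the flies or in the pooling, was not tested. Markers of the male accessory gland, an organ of the abdomen, were also read, and 5 of them summed to 334 to 2317 in *BxJ* and 51 to 242 in the control. Manufacturer's controls also differed with the genotype without overlap. The mean log2 intensity of 18 hybridization spike-ins was 8.66 to 9.57 in *BxJ* and 9.83 to 11.12 in the control, and that of 18S rRNA was 7.83 to 9.43 in *BxJ* and 10.53 to 12.72 in the control. The log2 ratio of 3′ to 5′ probe sets of GAPDH, a measure of RNA integrity, overlapped, at 1.23 to 1.41 in *BxJ* and 1.21 to 1.32 in the control. For actin this ratio was 1.29, 1.21 and 1.31 in *BxJ*, against 1.47, 1.57 and 1.25 in the control. Control replicates 1 and 2 thus lay above every *BxJ* array.

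*dLmo*, also known as *Bx*, was higher in *BxJ* heads on both probe sets named for it. Both are named only in the study's table of altered transcripts, which was selected on these arrays. A probe set of the gene that changed in neither mutant line would not have been named. The brighter of the 2 had intensities of 676, 623 and 672 on the 3 *BxJ* arrays, against 215, 202 and 115 on the 3 control arrays. The dimmer one had 124, 157 and 156 in *BxJ*, against 38.9, 46 and 23.7 in the control. No *BxJ* array overlapped a control array, and control replicate 3 was the lowest on both. Differences are given on the scale of log2(intensity + 16), as *BxJ* minus control, with their standard error (SE) and a p-value from limma adjusted over all 18769 probe sets, and a probe set counts as changed, or called, at an adjusted p under 0.05. The differences were 1.84 (SE 0.24, adjusted p = 0.025) and 1.65 (SE 0.17, adjusted p = 0.00905), both with an exact two-sided permutation p of 0.1, the smallest that 3 arrays against 3 allow. The call on the brighter probe set was lost without *BxJ* replicate 1, 2 or 3 (adjusted p = 0.105, 0.0645 and 0.0612), without *EP1306* replicate 3 (adjusted p = 0.0679) and without control replicate 2 (adjusted p = 0.0726), and the call on the dimmer one was kept in all 9 fits that left out 1 array.

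Across the array, 54 probe sets (0.288%) passed the test, 27 higher in *BxJ* (0.144%) and 27 lower (0.144%), and on all 54 the *BxJ* arrays did not overlap the control arrays. At an unadjusted p under 0.05 there were 2267 probe sets, 629 higher and 1638 lower. Changes of at least 2-fold were found for 13 of the probe sets that rose and 10 of those that fell. Of the 54, 47 named 1 gene each, for 45 genes in all, 1 named a pair of genes (*CG30345* and *flip*), and 6 had no gene name. The rises reached further than the falls, from 0.10 to 3.67 on the log2 scale, against -0.15 to -1.80. Most probe sets moved little, with a median difference of -0.02 and a range of -0.39 to 0.74 between the 1st and 99th percentiles. When the fit included a term for the spike-in level of each array, 5 probe sets passed, among them 4 of the 54 (*kek5*, *SelG*, *Sodh2* and 1 without a gene name), and all 54 kept their direction.

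**Figure D1:**
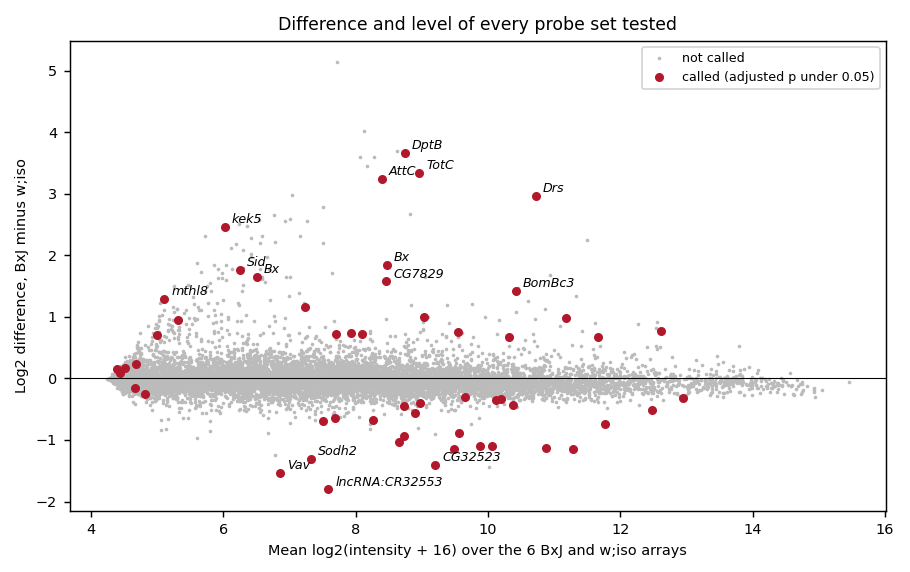
Each point is 1 of the 18769 probe sets, with its mean log2(intensity + 16) over the 6 *BxJ* and control arrays on the x axis and its log2 difference, *BxJ* minus control, on the y axis. Red points are the 54 called probe sets, and names mark those with 1 gene that rose or fell most, from *DptB* at 3.67 to *lncRNA:CR32553* at -1.80.

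Immune effector genes led the rises. The fly fat body and blood cells answer microbes through the Toll and Imd pathways, whose NF-kappaB factors switch on genes for secreted peptides. *DptB*, for a diptericin, an antibacterial peptide of the Imd pathway, read 1965, 1545 and 1141 in *BxJ*, against 192, 84.8 and 66.9 in the control (log2 difference 3.67, SE 0.36, adjusted p = 0.00662 from limma). *AttC*, for an attacin, another antibacterial peptide, read 1345, 1063 and 742 in *BxJ*, against 170, 68.6 and 67.3 in the control (3.24, SE 0.40, adjusted p = 0.0193 from limma). *Drs*, for the antifungal peptide drosomycin, read 5433, 5061 and 3790 in *BxJ*, against 866, 471 and 498 in the control (2.97, SE 0.27, adjusted p = 0.00502 from limma). The lowest *BxJ* array stood at 5.95 times the highest control array for *DptB* and 4.37 times for both *AttC* and *Drs*. *AttC* kept its call in 4 of the 9 fits without 1 array, and *DptB* and *Drs* kept theirs in 9. *DptB* and *AttC* lost their calls with only the *BxJ* and control arrays. Both also lost them without the array of each genotype richest in accessory gland transcripts. Within each genotype their order was alike: *BxJ* replicate 1 was the highest and replicate 3 the lowest, and control replicate 1 was the highest.

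Of 13 antimicrobial peptide genes with an annotated probe set, 2 rose (*DptB* and *Drs*) and 0 fell, against 0.159% of the 11982 genes tested with 1 probe set each that rose and 0.167% that fell. *AttC* is named only in the study's table of altered transcripts, which was selected on these arrays, so it is not counted in the list. Every *BxJ* array lay above every control array for 6 of the 13 genes, and this held for 4.11% of all genes. The reverse order, every *BxJ* array below every control array, was found for 2 of the 13 and for 22.2% of all genes. The median difference of the 13 genes was 0.30, and that of all genes was -0.01. Without control replicate 3 the median of the 13 was 0.19. *Mtk*, for metchnikowin, chosen after its values were seen, read 4399, 4061 and 2423 in *BxJ*, against 1633, 1195 and 647 in the control. Its difference of 1.68 did not pass the test (adjusted p = 0.139 from limma), and *Def*, for defensin, differed by 0.69 (adjusted p = 0.0975).

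The Bomanins, short secreted peptides induced by Toll, and the related Baramicins were higher by their means in 10 of 10 genes, with a median difference of 0.52, and 3 rose (0.159% of all genes rose). *BomBc3* read 2550, 2222 and 1943 in *BxJ*, against 1029, 763 and 700 in the control (1.42, SE 0.17, adjusted p = 0.0175 from limma). *BomS5* differed by 0.98 (adjusted p = 0.0301) and *BomS2* by 0.68 (adjusted p = 0.0423), and these 2 genes lie on chromosome arm 2R with 1 measured gene between them. *BomBc3* kept its call in 4, *BomS5* in 3 and *BomS2* in 1 of the 9 fits without 1 array. Closely related Bomanins may share probes, so their values may not be independent. *BomT2*, chosen after its values were seen, read 2852, 2553 and 1891 in *BxJ* and 1403, 903 and 766 in the control. Its difference of 1.26 was larger than those of *BomS5* and *BomS2*, with more spread (adjusted p = 0.129). *BaraA2*, a Baramicin named from the table of altered transcripts alone, rose by 0.72 on one probe set (adjusted p = 0.0175), and its other probe set differed by 0.90 (adjusted p = 0.16).

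Receptors and signalling genes upstream of these peptides were not called. With 0.159% of all genes rising and 0.167% falling, most lists of these sizes hold 0 calls. Among 7 peptidoglycan recognition proteins, which sense bacterial cell wall, 0 passed and the median difference was 0.14, which was 0.24 without control replicate 1 and 0.06 without control replicate 2. The secreted *PGRP-SB1* came nearest, with 4670, 4203 and 3415 in *BxJ*, against 2187, 1396 and 1333 in the control (1.34, SE 0.21, adjusted p = 0.0632 from limma), and its arrays did not overlap. Among 25 genes of Toll and Imd signalling 0 passed, with a median of 0.02. *nec*, for a serpin that restrains Toll activation, differed by 0.40 (adjusted p = 0.365), and *Rel*, for the Imd factor Relish, by 0.30 (adjusted p = 0.391). The serpins as a group, 28 protease inhibitors that include *nec*, had a median of 0.06 and 0 calls. Haemocyte markers summed to 566 to 786 in *BxJ* and 458 to 638 in the control. Fat body markers summed to 15024 to 17003 in *BxJ* and 11170 to 16980 in the control, so both overlapped. Most of the fat body sum was *apolpp* (0.20, adjusted p = 0.465 from limma). *Lsp2*, another fat body marker, read 1519, 1492 and 986 in *BxJ*, against 1045, 553 and 291 in the control (1.21, adjusted p = 0.345). The part of these cells in the peptide values was not tested. In RNA from whole heads, more cells of a type and more RNA in each cell cannot be told apart.

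Genes of the stress and acute phase response moved unevenly. *TotC*, for a Turandot protein released into the haemolymph under stress, read 1989, 2203 and 875 in *BxJ*, against 201, 120 and 114 in the control (3.34, SE 0.50, adjusted p = 0.0471 from limma). Its *BxJ* arrays spanned more than a doubling, and the call held in 2 of 9 fits without 1 array. The other 4 annotated Turandot genes were dim, at intensities under 13 on these arrays, and differed by -0.12 to 0.08. *TotM*, chosen after its values were seen and named only from the table of altered transcripts, had the largest difference on the array, with 1406, 2393 and 562 in *BxJ*, against 33.2, 13.3 and 15.4 in the control (5.14), and did not pass the test (adjusted p = 0.129 from limma). On both Turandot genes *BxJ* replicate 2 was the highest and replicate 3 the lowest of the *BxJ* arrays, an order that differs from that of the antimicrobial peptides. Of 7 genes of the JAK/STAT pathway 0 passed, with a median of 0.00. Among 15 heat shock proteins 0 passed, with a median of 0.07 that leaving out 1 array took to 0.03 to 0.13, and *Hsp68* differed by 0.36 (adjusted p = 0.241).

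*Sid*, for a stress-induced DNase, read 143, 117 and 114 in *BxJ*, against 43.3, 11.9 and 26.6 in the control (1.76, SE 0.26, adjusted p = 0.0423 from limma), and it kept its call in 1 of the 9 fits without 1 array. *Tsf1*, for transferrin, an iron carrier of the haemolymph that is withheld from microbes, was among the brightest genes called, with 8656, 7995 and 7758 in *BxJ*, against 5245, 4566 and 4572 in the control (0.76, SE 0.07, adjusted p = 0.00604 from limma). Its call was kept in 9 of 9 such fits. Its other probe sets did not pass, with a difference of 0.94 (adjusted p = 0.238) and, on a dim one, of -0.09. *Tsf1* was the only one of 8 iron handling genes that passed, and ferritin 1 heavy chain (*Fer1HCH*), chosen after its values were seen, differed by -0.05.

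Among the rises outside immunity, *kek5* stood out from its control level with the smallest p of all probe sets. Its product spans the membrane, has leucine-rich repeats and an immunoglobulin domain, and is known to modulate BMP signalling. It read 122, 141 and 147 in *BxJ*, against 11.5, 12.1 and 11.3 in the control (2.46, SE 0.10, adjusted p = 1.20e-04 from limma). The control arrays were near the level of the array median, 15.94 to 17.16, and a second, dim *kek5* probe set differed by -0.08 (adjusted p = 0.351). *CG7829*, for a trypsin-like serine protease, rose on both of its probe sets. The brighter read 557, 593 and 623 in *BxJ*, against 208, 161 and 196 in the control (1.58, SE 0.13, adjusted p = 0.00236 from limma), and the dimmer 166, 209 and 260 in *BxJ*, against 84.9, 87.1 and 81 in the control (1.16, SE 0.14, adjusted p = 0.0193). *mthl8*, for a G protein-coupled receptor of the Methuselah family, read 46.2, 31.8 and 36.2 in *BxJ*, against 5.47, 6.93 and 5.6 in the control (1.29, SE 0.08, adjusted p = 0.00163 from limma), and its second probe set differed by 0.36 (adjusted p = 0.128).

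The remaining named rises were smaller. *CG10550* rose by 1.00 (adjusted p = 0.00756 from limma) and kept its call in 9 of 9 fits without 1 array. *Acbp5*, for an acyl-CoA binding protein, rose by 0.95 (adjusted p = 0.034). *isoQC*, for a glutaminyl cyclase, rose by 0.74 (adjusted p = 0.0365) on a probe set named from the table of altered transcripts alone, with -0.15 on its annotated one. *SP1029*, for an aminopeptidase, rose by 0.71 (adjusted p = 0.0301), *CG15553* by 0.70 (adjusted p = 0.0258) and *CG33110*, for a fatty acid elongase, by 0.67 (adjusted p = 0.0258). The other 5 kept their calls in 1 to 3 of 9. Calls of *CG10005* (0.23), *CG3868* (0.16) and *Mal-A8* (0.10), a maltase gene, lay at mean intensities under 12 in both genotypes and were kept in 1 or 2 of 9. In all, 5 of the called rises and 2 of the called falls had means under 32 in both genotypes, where 16 added to the intensity shrinks a difference and the spread between arrays is small.

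**Figure D2:**
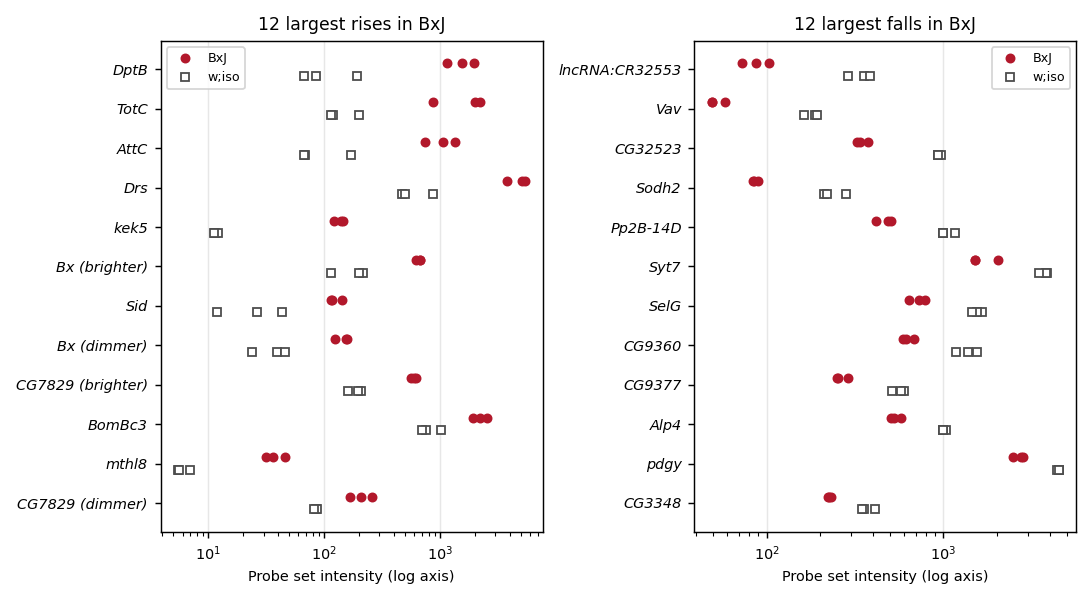
Intensity of each *BxJ* array (red circles) and each control array (open squares), on a log axis, for the 12 probe sets that rose most (left) and the 12 that fell most (right) among those with 1 gene name. No *BxJ* point overlaps a control point on any of the 24, and the 3 *kek5* control points lie at 11.3 to 12.1.

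The falls were led by *lncRNA:CR32553*, an X-linked noncoding RNA, with 86.9, 72.8 and 103 in *BxJ*, against 358, 290 and 384 in the control (-1.80, SE 0.13, adjusted p = 0.0019 from limma). *Vav*, for a guanine nucleotide exchange factor, read 49.2, 49 and 58.4 in *BxJ*, against 162, 189 and 193 in the control (-1.53, SE 0.13, adjusted p = 0.00256 from limma). A second *Vav* probe set differed by -0.44 without passing (adjusted p = 0.265). *CG32523*, for a serine protease, read 336, 326 and 375 in *BxJ*, against 931, 964 and 928 in the control (-1.41, SE 0.10, adjusted p = 0.00164 from limma). The *BxJ* arrays were below the control arrays for each of these 3 genes, and their calls were kept in 9 of 9 fits without 1 array.

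*Syt7*, for a synaptotagmin, a calcium sensor of membrane fusion, read 1503, 1520 and 2041 in *BxJ*, against 3848, 3802 and 3478 in the control (-1.14, SE 0.12, adjusted p = 0.00934 from limma). *Pp2B-14D*, for a catalytic subunit of the calcium-activated phosphatase calcineurin, read 484, 414 and 508 in *BxJ*, against 995, 1002 and 1163 in the control (-1.14, SE 0.09, adjusted p = 0.00236 from limma). *CG11155*, for a kainate-type glutamate receptor subunit, fell by 0.64 on one probe set (adjusted p = 0.0227), while its brighter probe set differed by -0.10 (adjusted p = 0.538). *BxJ* replicate 3 was the highest of the *BxJ* arrays for both *Syt7* and *Pp2B-14D*, and *Syt7* lost its call in 1 of the 9 fits without 1 array.

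*Sodh2*, for a sorbitol dehydrogenase, read 84.7, 83.4 and 89.5 in *BxJ*, against 281, 212 and 221 in the control (-1.31, SE 0.11, adjusted p = 0.00236 from limma). Its paralog *Sodh1* stood the other way, with 1264, 1038 and 739 in *BxJ*, against 654, 351 and 328 in the control, a difference of 1.20 that did not pass the test (adjusted p = 0.265). *SelG*, for a selenoprotein, read 784, 643 and 728 in *BxJ*, against 1664, 1544 and 1457 in the control (-1.10, SE 0.08, adjusted p = 0.00203 from limma). *CG9360*, for a short-chain dehydrogenase, read 687, 619 and 591 in *BxJ*, against 1551, 1388 and 1174 in the control (-1.09, SE 0.13, adjusted p = 0.0185). *Sodh2*, *SelG* and *CG9360* stood at 0.403, 0.467 and 0.47 of the control on this scale, and none of their arrays overlapped.

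*CG9377*, for a serine protease homolog, read 289, 252 and 254 in *BxJ*, against 599, 578 and 510 in the control (-1.04, SE 0.10, adjusted p = 0.00662 from limma). *Alp4*, for an alkaline phosphatase, read 579, 527 and 508 in *BxJ*, against 1037, 999.9 and 992 in the control (-0.89, SE 0.06, adjusted p = 0.00164 from limma). *pdgy*, for an acyl-CoA synthetase that affects fat storage, read 2829, 2473 and 2749 in *BxJ*, against 4512, 4382 and 4514 in the control (-0.73, SE 0.06, adjusted p = 0.00236 from limma). Calls of these 3 genes were kept in 9 of 9 fits without 1 array. *CG3348* read 225, 223 and 231 in *BxJ*, against 409, 357 and 346 in the control (-0.67, SE 0.09, adjusted p = 0.025 from limma) and kept its call in 3 of 9.

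Smaller falls included *CDase*, for a neutral ceramidase (-0.57, adjusted p = 0.0193 from limma), *norpA*, for the phospholipase C of the photoreceptor (-0.52, adjusted p = 0.0158), *Dlic*, for a dynein light intermediate chain (-0.44, adjusted p = 0.0423), the kinase gene *Hipk* (-0.44, adjusted p = 0.0417), *Phb1*, for prohibitin of the mitochondrial inner membrane (-0.35, adjusted p = 0.0109), and *nrv3*, for a beta subunit of the sodium pump (-0.32, adjusted p = 0.0273). *CG5515*, *CG9328* and *CG7407* fell by 0.40, 0.33 and 0.30. Their calls were sensitive to single arrays: of these 9 genes, *norpA* and *Phb1* kept theirs in 6 of 9 fits without 1 array, and the other 7 in 0 to 3.

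Gene lists for the nervous system leaned low in *BxJ* by their medians, with few calls. Release of transmitter depends on proteins that fill, dock, fuse and retrieve synaptic vesicles, and of 27 such genes 25 were lower by their means, 1 fell (*Syt7*) and 0 rose. The median was -0.22, the lowest of the 48 lists. It was -0.13 when the median over all probe sets of a gene replaced the brightest probe set. For 10 of the 27 every *BxJ* array was below every control array (37%, against 22.2% of all genes). *Csp*, for a chaperone of the vesicle, read 3258, 3339 and 3575 in *BxJ*, against 4010, 4377 and 4083 in the control, a difference of -0.29 that did not pass (adjusted p = 0.137 from limma). *EndoA*, for endophilin, which serves vesicle retrieval, differed by -0.37 (adjusted p = 0.181), and *Rop*, for the fly Munc18, by -0.26 (adjusted p = 0.196). *BxJ* replicate 3 lay closest to the control on this list, with a mean log2 intensity of 9.74, against 9.59 and 9.62 on replicates 1 and 2 and 9.82 to 9.91 on the control arrays.

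Channel and receptor lists had medians nearer to that of all genes. Sodium and calcium channel genes had a median of -0.14 (16 genes, 0 called), potassium channels -0.10 (18 genes, 0 called) and transmitter-gated receptors -0.07 (28 genes, 0 called). Without control replicate 3 these medians were -0.06, -0.01 and -0.04. *Sh*, for the Shaker potassium channel, differed by -0.53 (adjusted p = 0.254 from limma), and *Ih*, for a channel opened by hyperpolarization, by -0.28 (adjusted p = 0.243). *Rdl*, for a GABA receptor that mediates fast inhibition, read 193, 165 and 240 in *BxJ*, against 265, 300 and 388 in the control (-0.63, SE 0.16, adjusted p = 0.23), without overlap. Calcineurin and calmodulin genes had a median of -0.15 over 6 genes, with *Pp2B-14D* the only one called and its paralog *CanA-14F*, at -0.34 (adjusted p = 0.269), next.

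Neuropeptide genes had 26 of 34 lower by their means and 0 called, with a median of -0.06 (-0.12 without control replicate 2), and *AstC*, for allatostatin C, differed by -0.39 (adjusted p = 0.206 from limma). Genes of monoamine synthesis, transport and signalling had a median of -0.09 over 24 genes, 0 called. *5-HT7*, for a serotonin receptor, was at 49.7, 48.2 and 44.3 in *BxJ*, against 73.5, 64.2 and 86.3 in the control (-0.51, adjusted p = 0.287). Surface proteins of the immunoglobulin and leucine-rich repeat classes, which neurons use to recognize each other, held the called rise of *kek5*, while 53 of 65 were lower by their means, with a median of -0.08. *dpr8* came nearest among these, with 105, 130 and 115 in *BxJ*, against 195, 182 and 209 in the control (-0.68, SE 0.12, adjusted p = 0.0902). Clock genes had a median of -0.06 over 13 genes, which was -0.00 without control replicate 3, and 0 called, and *cry*, for the light sensor cryptochrome, differed by -0.17 (adjusted p = 0.363). Genes of ethanol behavior had a median of -0.08 over 20 genes and 0 called, and *krz*, for a beta-arrestin, averaged 61.3 ± 21.2 in *BxJ* and 125 ± 19.5 in the control (SD, n = 3 each) (-0.89, adjusted p = 0.214).

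Phototransduction turns the absorption of light into opening of TRP channels through a Gq protein and the phospholipase C NORPA. Of 22 such genes with an annotated probe set 19 were lower by their means, 12 without overlap (54.5%, against 22.2% of all genes), with a median of -0.16 and 0 calls. *norpA*, which did fall, is named only in the table of altered transcripts and is not counted among the 22. It read 4690, 4533 and 4983 in *BxJ*, against 6335, 6846 and 7194 in the control. *rdgB*, for a lipid transfer protein that restores the substrate of NORPA, read 1898, 2011 and 2174 in *BxJ*, against 2427, 2742 and 2768 in the control (-0.38, SE 0.08, adjusted p = 0.16 from limma). *rtp*, for retinophilin, differed by -0.22 (adjusted p = 0.129) and *Galphaq*, for the G protein subunit, by -0.19 (adjusted p = 0.235). Eye pigment genes had a median of -0.07 over 19 genes, and *kar* differed by -0.27 (adjusted p = 0.235). In the glial list *nrv2*, for another beta subunit of the sodium pump, read 6560, 6937 and 6896 in *BxJ*, against 8028, 8136 and 7904 in the control (-0.24, SE 0.04, adjusted p = 0.0631), with a median of -0.07 over 21 genes.

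These list medians are read beside a tilt of all bright probe sets. At mean intensities over 2048 the median difference of 932 probe sets was -0.066 and every *BxJ* array was below every control array for 33.7%, and between 512 and 2048 the values were -0.060 and 21.5% of 1917 probe sets. Under 16, a level at which a transcript is hardly read, 39.3% of 9225 probe sets had that order, with a median of -0.014. Counts of genes lower by their means were high in dim lists too. They were 49 of 57 for odorant receptors and 87 of 109 for gustatory or ionotropic receptors, so such counts alone do not set the neural lists apart. Lists of housekeeping genes varied around these values. Respiratory chain and ATP synthase genes had 62 of 75 lower by their means, a median of -0.06 and 31 without overlap below the control (41.3%, against 22.2% of all genes), and *ATPsynC* differed by -0.18 (adjusted p = 0.258 from limma). Cytosolic ribosomal proteins had a median of -0.03 (42 genes), mitochondrial ribosomal proteins -0.03 (71 genes) and proteasome subunits -0.05 (40 genes), with 0 calls. *RpS28b* differed by -0.10, *mRpL47* by -0.21 and *Prosalpha6* by -0.22, none past the test. With quantile normalization the medians were -0.20 for synaptic vesicle genes, -0.12 for phototransduction, -0.02 for the respiratory chain and 0.00 for the cytosolic ribosomal proteins. Neuronal markers summed to 1390 to 1477 in *BxJ* and 1509 to 1943 in the control (3 genes). The gap came from *elav* (-0.81, adjusted p = 0.272), while *nSyb* (-0.04) and *brp* (-0.18) overlapped, and their part in the neural lists was not tested.

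**Figure D3:**
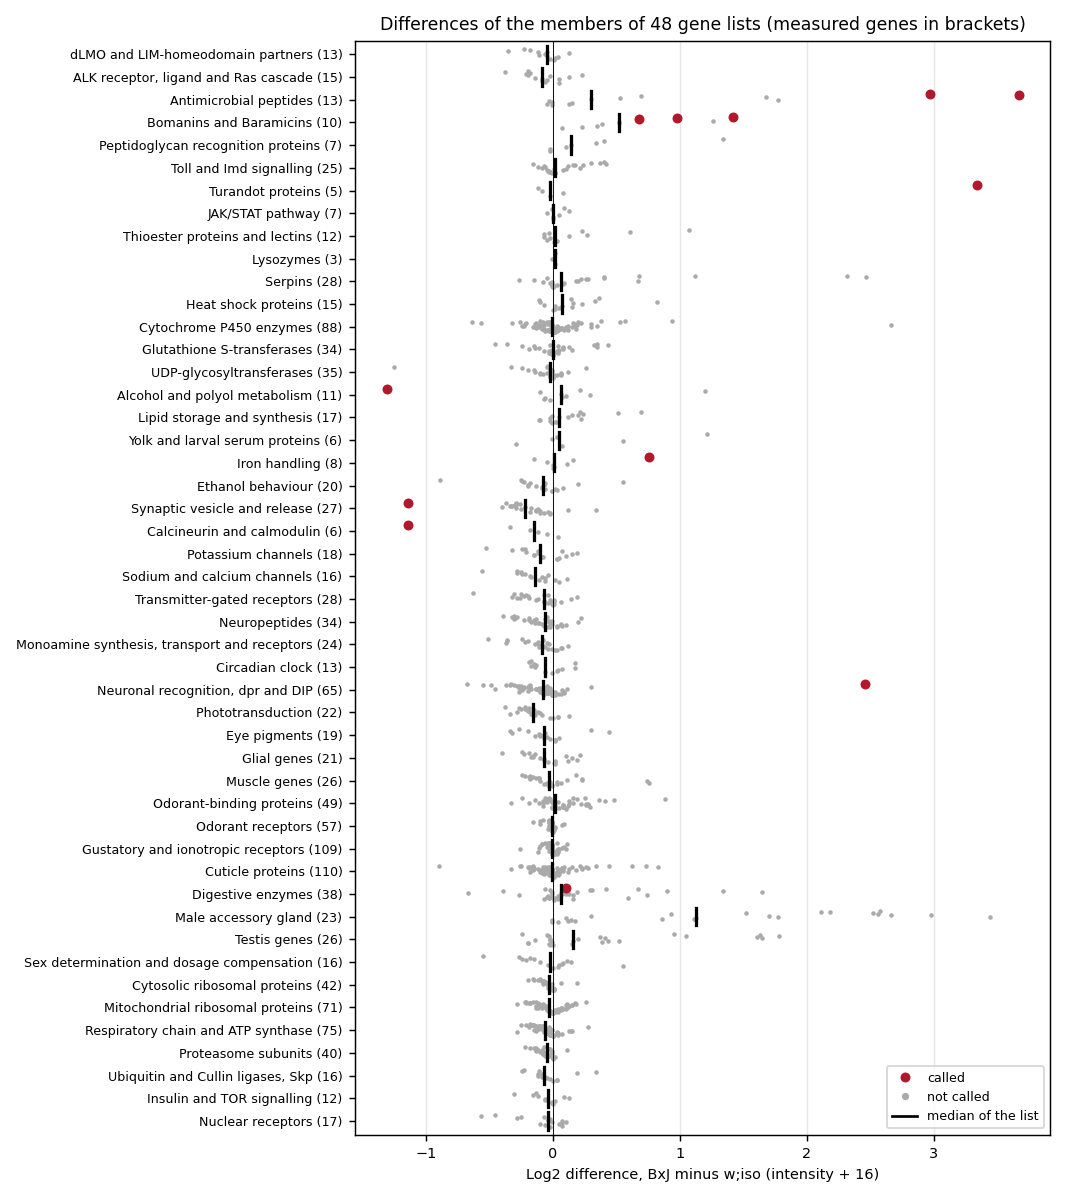
Log2 difference, *BxJ* minus control, of each measured gene (points) in 48 gene lists, with the list median as a black bar and called genes in red. Bomanins and Baramicins (median 0.52) and male accessory gland genes (1.13) lie furthest right, synaptic vesicle genes (-0.22) furthest left, and most called genes stand apart from the rest of their list.

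The list of dLMO partners and other LIM proteins, which does not count *Bx* itself, held 0 calls. Most lists of this size would, since 0.159% of all genes rose and 0.167% fell. Among 13 dLMO partners, LIM-homeodomain factors and other LIM proteins the median was -0.05 (-0.12 without control replicate 2), and *Zyx*, for the LIM protein zyxin, had the smallest p, with 1182, 1129 and 1329 in *BxJ*, against 1442, 1432 and 1402 in the control (-0.23, adjusted p = 0.406 from limma). *Ssdp*, for a partner of Chip, differed by -0.18 and *tup*, for the LIM-homeodomain factor Tailup, by -0.35. *Alk*, for the receptor tyrosine kinase dALK, read 322, 352 and 339 in *BxJ*, against 361, 402 and 410 in the control. All *BxJ* arrays were below all control arrays, and the difference of -0.20 (95% interval -0.46 to 0.06) did not pass the test (adjusted p = 0.468, exact permutation p = 0.1). *jeb*, for its secreted ligand, was dim, with 15.7, 12.5 and 15.6 in *BxJ*, against 17.4, 16 and 25.1 in the control (adjusted p = 0.435). Over 15 genes of the receptor, ligand and Ras cascade the median was -0.09 and 7 had all *BxJ* arrays below the control (46.7%, against 22.2% of all genes), led by *csw*, for the phosphatase Corkscrew (-0.20, adjusted p = 0.284). Genes of sex determination and dosage compensation had a median of -0.02 over 16 genes, and *msl-2*, which drives dosage compensation in males, read 165, 182 and 192 in *BxJ*, against 281, 298 and 235 in the control (-0.55, SE 0.10, adjusted p = 0.103).

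Detoxification and chemosensory families mostly stayed near the array median. Cytochrome P450 enzymes had a median of -0.01 over 88 genes with 0 calls, glutathione S-transferases -0.00 over 34 and UDP-glycosyltransferases -0.02 over 35. *Cyp6t1* read 178, 122 and 117 in *BxJ*, against 89.2, 54.7 and 51.9 in the control (0.94, adjusted p = 0.235 from limma), and *GstE11* differed by 0.35 (adjusted p = 0.406). Odorant-binding proteins, which carry odorants in the sensillar fluid, had a median of 0.02 over 49 genes, and the bright *Obp44a* differed by -0.24 (adjusted p = 0.162). Odorant receptors and gustatory or ionotropic receptors had mean intensities under 32 for 56 of 57 and 108 of 109 genes, with 0 calls. Of 110 cuticle protein genes 0 passed, with a median of -0.01, and *Acp65Aa*, for an adult cuticle protein, read 466, 607 and 553 in *BxJ*, against 370, 317 and 278 in the control (0.73, adjusted p = 0.128). Lipid storage and synthesis genes had a median of 0.05 over 17 genes, with *AcCoAS*, for acetyl-CoA synthetase, at 0.21 (adjusted p = 0.16), and the median was 0.17 without control replicate 1. Muscle genes had a median of -0.03 over 26, and 0.01 with quantile normalization, with *Tm2*, a tropomyosin, at -0.24 (adjusted p = 0.103).

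Transcripts of the male reproductive tract had the highest list median without a single call. Accessory gland genes encode seminal fluid proteins, and of 23 such genes 21 were higher by their means in *BxJ*, 9 without overlap (39.1%, against 4.11% of all genes), with a median of 1.13, which was 0.63 without *BxJ* replicate 3, and 1.85 or 0.60 with 1 or 64 added to the intensity in place of 16. Their mean log2 intensity was 6.14, 5.88 and 7.37 on the *BxJ* arrays, against 4.77, 5.71 and 4.89 on the control arrays. *BxJ* replicate 3 was far above the others and control replicate 2 stood just under *BxJ* replicate 2. *Acp26Aa*, for ovulin, a seminal protein that stimulates egg laying, read 148, 42 and 380 in *BxJ*, against 16.2, 20 and 19.4 in the control (2.18, SE 0.63, adjusted p = 0.269 from limma). *Ebp*, for the ejaculatory bulb protein, chosen after its values were seen, read 399, 742 and 2600 in *BxJ*, against 5.25, 994 and 5.56 in the control, an overlap in which control replicate 2 exceeded 2 of the *BxJ* arrays. Testis genes had a median of 0.16 over 26 genes, which was -0.01 without *BxJ* replicate 3. Without the array of each genotype richest in accessory gland transcripts, 48 probe sets were called, 38 higher and 10 lower, of which 18 were among the 54.

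**Figure D4:**
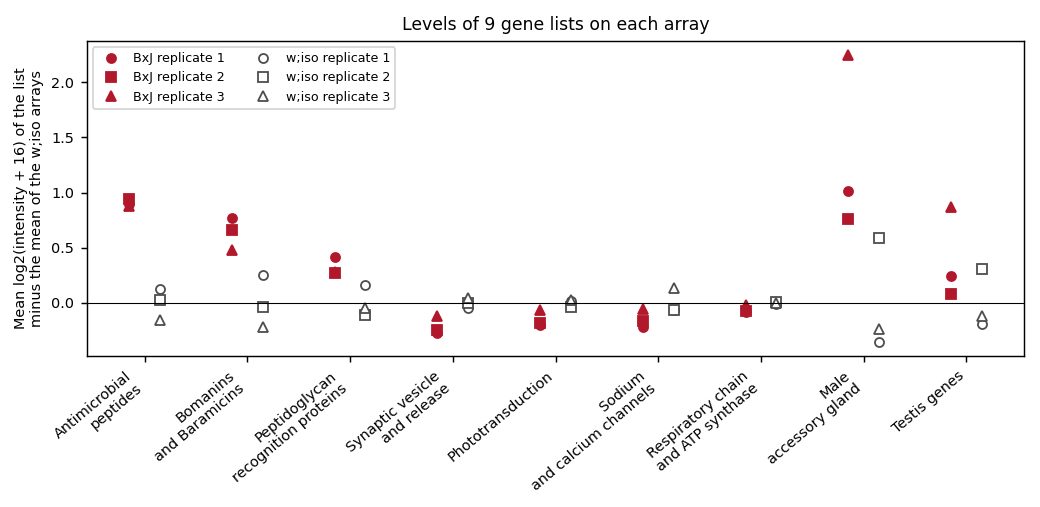
Mean log2(intensity + 16) of 9 gene lists on each *BxJ* array (red) and each control array (open), minus the mean of the 3 control arrays, with a marker shape for each replicate number. Antimicrobial peptides and Bomanins separate the genotypes on all arrays, while for the male accessory gland *BxJ* replicate 3 stands apart and control replicate 2 comes close to *BxJ* replicate 2.

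On the chromosomes, called genes were spread over all major arms, counted with 1 probe set for each gene, the brightest. Of 1873 X-linked genes with an annotated probe set, 2 rose and 8 fell (0.534%), while of 9950 genes on arms 2L to 3R, 17 rose and 11 fell (0.281%). Arm 3R held 9 rises and 5 falls (2974 genes), 3L 4 and 2 (2344 genes), 2R 4 and 0 (2427 genes) and 2L 0 and 4 (2205 genes), and the 1 call among 65 genes of chromosome 4 was *Syt7*, while *CG11155*, on the same chromosome, was called on its dimmer probe set alone and is not counted. Median differences of the X and of arms 2L to 3R were alike, at -0.016 and -0.014. Within 10 measured genes on each side of *Bx* 0 were called, and within 100 on each side there were 4 of 200: *lncRNA:CR32553* and *Tsf1*, 37 and 17 genes before it, and *Vav* and *kek5*, 69 and 78 genes after it. Further calls on the X were *CG32523*, 217 genes after *Bx*, and *Pp2B-14D*, *pdgy*, *SelG*, *CG9360* and *Dlic*, 192 to 667 genes before it. *norpA*, a fall on the X that only the table of altered transcripts names, was not placed in this order and is not among the 8. A sequence difference on the X chromosome that the crosses left in the *BxJ* line and an effect of the allele on these genes cannot be told apart in this design.

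**Figure D5:**
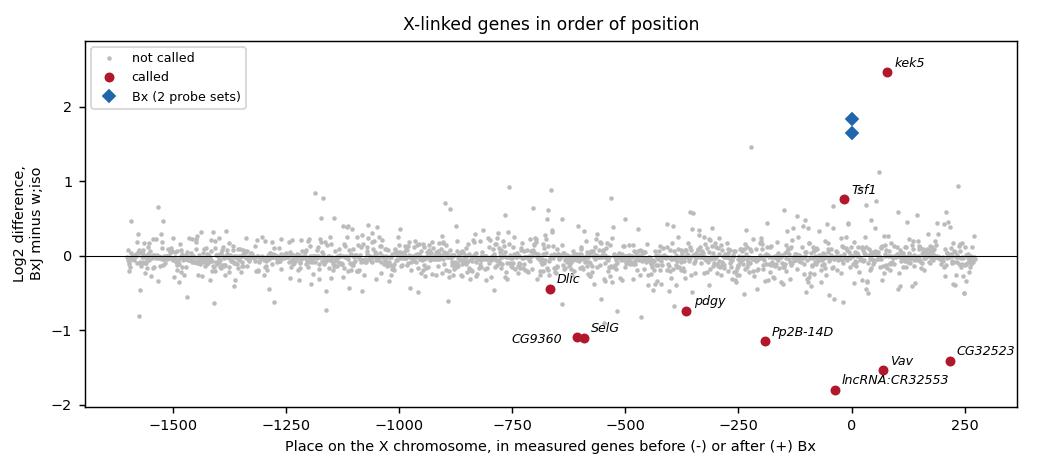
Log2 difference, *BxJ* minus control, of each X-linked gene with an annotated probe set (y axis) against its place in measured genes before or after *Bx* (x axis), with called genes in red and the 2 *Bx* probe sets in blue. Both *Bx* probe sets (1.84 and 1.65), *kek5* (2.46) and *Tsf1* (0.76) are above 0, and the other 8 called genes plotted are below it (*norpA*, not annotated, is not plotted).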

How the data were processed

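Heads of male flies were measured on Affymetrix Drosophila 2.0 arrays, 3 for *BxJ*, 3 for *EP1306* and 3 for *w;iso*. The authors deposited linear intensity values, made with MAS5 per the labels. Other normalization and the genome build are not given in the sources used here, and the number of arrays limits the precision. After 183 manufacturer's controls were set aside, values were used as log2(intensity + 16) with no scaling, since array medians differed little (15.94 to 17.8). A mean for each genotype was fitted over all 9 arrays in limma 3.58.1 with a variance trend in eBayes (R 4.3.3, 2.24 prior degrees of freedom), with Benjamini-Hochberg adjustment over 18769 probe sets, and the contrast *BxJ* minus *w;iso* was read. The fit was tested on simulated data.

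By the platform annotation 13647 probe sets name a single gene and 402 name more than 1. RefSeq (Release 6) updated names and gave chromosomes and gene order. The study's table of altered transcripts names 32 more probe sets, among them *Bx*, which were not counted in lists. Where a gene had several probe sets, lists used the one brightest on average over the 9 arrays, and no list was tested as a set. The accessory gland list was corrected after the data were seen, to leave out a cuticle protein.

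Named are all called probe sets with 1 gene (per array for the 12 largest rises and falls), *Bx*, *Alk*, *jeb* and up to 3 members of a list with the smallest p. Other genes, apart from tissue markers, are stated as chosen after their values were seen. Members and lists were chosen with earlier results of these data known. Alternatives were quantile normalization, centring on the median, a pseudocount of 64 or 1, a filter (intensity of at least 32 on at least 3 arrays), no trend, a replicate block, only the 6 arrays, leaving out 1 array, leaving out the gland-rich array of each genotype, the spike-in covariate, and the t-tests that the methods name. For lists, the median over the probe sets of a gene was a further alternative.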

Additional observations from a re-analysis of the deposited data

How the results depend on the processing

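All 54 called probe sets kept their direction under every alternative in which they were tested. By limma, 127 probe sets were called after the filter on low values (62 higher and 65 lower, 8605 tested), where fewer tests share the adjustment, and 46 of 46 testable calls were kept. Of 54 calls, 15 were kept (6 higher, 9 lower) in the fit of only the *BxJ* and *w;iso* arrays, which has fewer arrays to estimate the spread. The spike-in covariate left 5 (2 higher, 3 lower), and without the trend 46 were called, 16 of them higher. Without the gland-rich arrays 10 were lower. The methods' t-test gave 0 higher and 0 lower after Benjamini-Hochberg, and 1936 (304 higher, 1632 lower) unadjusted. Leaving out 1 array gave 21 to 127 calls, 9 to 53 higher and 11 to 74 lower. Over 1.5 times more or fewer were called without control replicate 1 (127), 2 (21) or 3 (27), *EP1306* replicate 2 (31) or 3 (30) or *BxJ* replicate 1 (28). With the replicate number as a block 70 were called, 43 higher. Between *BxJ* and control arrays of the same number, deviations from the genotype means correlated at 0.289, -0.376 and -0.0874 across probe sets. Pairs of different number ran from -0.427 to 0.458, the highest for *BxJ* replicate 3 with control replicate 2. The cause of these shifts in the number of calls, and of these correlations, was not tested.

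The brighter *Bx* probe set stayed at 1.58 to 1.99 on the log2 scale when 1 array was left out. It lost its call by limma without the trend (1.84, adjusted p = 0.0534), with only the *BxJ* and *w;iso* arrays (1.84, adjusted p = 0.099), without the gland-rich arrays (1.93, adjusted p = 0.135) and with the spike-in covariate (1.33, adjusted p = 0.487), and by the methods' t-test after Benjamini-Hochberg (1.84). The dimmer one lost its call with only those arrays (1.65, adjusted p = 0.099), without the gland-rich arrays (1.74, adjusted p = 0.0587), with the covariate (1.65, adjusted p = 0.35) and by the methods' t-test after Benjamini-Hochberg (1.65). Unadjusted, that test called both. Median differences of antimicrobial peptides, Bomanins, peptidoglycan recognition proteins and accessory gland genes were above 0, and those of synaptic vesicle, phototransduction and ion channel genes below 0, in all 16 alternatives run for lists. Among the 48 lists, 11 had medians of both signs over the alternatives, 10 of them within 0.05 of 0 in the fit reported: Toll and Imd signalling (-0.02 to 0.09), JAK/STAT (-0.02 to 0.03), thioester proteins, lysozymes, cytochrome P450 enzymes, glutathione S-transferases, yolk proteins (-0.13 to 0.75, the highest without control replicate 1), iron handling, muscle and mitochondrial ribosomal proteins. The other was testis genes (-0.01 to 0.27). In 36 lists leaving out 1 *BxJ* or control array moved the median by over 1.5 times.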
